A study of Homo sapiens with 8 samples.

Results

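Bone morphogenetic proteins (BMPs) are secreted growth factors of the TGF-beta superfamily. They bind paired type I and type II receptor kinases, which phosphorylate SMAD1, SMAD5 and SMAD9, and these enter the nucleus with SMAD4. The ID genes are classical direct targets of this signal. Their products are helix-loop-helix proteins that lack a DNA-binding region and hold E proteins away from DNA. SMAD6 and SMAD7, the inhibitory SMADs, are induced by the signal and damp it in turn. In the intestine BMP signalling is known to be stronger towards the villus and to favour differentiation over crypt stem cell renewal.

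The 10 genes described here are the ligand genes BMP2 and BMP4, the target genes ID1, ID2, ID3 and ID4, the inhibitory SMAD genes SMAD6 and SMAD7, and the TGF-beta early response genes KLF10 and PMEPA1. They were picked by symbol out of 58735 genes in the table, with their treated and untreated values in view. Those values are therefore a description and support no statement about the pathway. The series gave exosomes, small secreted vesicles, of THP-1 cells, a monocytic leukaemia line, to Caco-2 cells, a colorectal carcinoma line used as a model of intestinal epithelium. The groups were M2-exo treated Caco-2 cells (3 libraries) and Caco-2 cells labelled untreated, which per the protocol received PBS (3 libraries). Both groups were wild type per the labels and were grown in medium with 18% fetal bovine serum. M2 is the usual name for alternatively activated macrophages. The exosomes themselves were measured as 1 M2-exo and 1 M0-exo small RNA library. The sources used here do not state the dose or the time of treatment. Nothing says that replicates came from separate cultures, so the errors measure the spread between these libraries, which may be technical.

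Caco-2 totals were 17408745 to 18184325 counts in M2-exo treated libraries and 15608937 to 18324599 in untreated ones. The labels call the cells stem cells. Of 14 markers of Caco-2 cells and enterocytes, 12 had enough counts to test. The 14 summed to 10182 to 12862 CPM (counts scaled to a common library size with TMM factors) in treated libraries. In untreated libraries they summed to 10724 to 13933 CPM. A large part of the sum was the keratin gene KRT8, with means of 4892 CPM in treated and 4999 CPM in untreated libraries. The 13 macrophage markers summed to 13.1 to 20.1 CPM in treated and 16.5 to 21.3 CPM in untreated libraries, with CD68, TYROBP and C1QA at 0 in all 6. The 9 fibroblast markers summed to 70.7 to 94.5 CPM in treated and 69.6 to 80.7 CPM in untreated libraries. PDGFRA was the most abundant of them and POSTN was at 0. One untreated library stood apart: mitochondrial genes took 4.16% of its counts (untreated 1), against 7.49% to 8.11% in treated libraries and 7.01% to 7.48% in the other untreated ones.

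The start regions of 4 members show what they share and do not share in sequence. Windows of 300 bases, from 250 before to 50 after a RefSeq gene start, were matched for 8 of the 10 genes, in 15 windows. BMP2 and KLF10 were not matched. The sequences are RefSeq's, build GRCh38.p14, written in the direction of the gene. ID1 and ID4 are shown as the most abundant and the undetected ID gene. Capitals mark TATAAA, the TATA box, or its reverse complement, which overlap in ID1. SMAD6 is shown for GTCTAGAC, the palindromic SMAD-binding element, and BMP4 for GGCGCC, a GC-rich motif known to be bound by SMAD1 and SMAD5, both in capitals.
ID1 (chr20:31605039-31605338, + strand): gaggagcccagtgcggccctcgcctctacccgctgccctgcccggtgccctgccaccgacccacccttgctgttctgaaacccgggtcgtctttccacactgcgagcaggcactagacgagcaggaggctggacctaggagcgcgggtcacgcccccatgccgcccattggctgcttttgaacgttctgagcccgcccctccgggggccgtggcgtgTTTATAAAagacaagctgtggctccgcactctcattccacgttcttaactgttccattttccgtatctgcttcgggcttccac
ID4 (chr6:19837120-19837419, + strand): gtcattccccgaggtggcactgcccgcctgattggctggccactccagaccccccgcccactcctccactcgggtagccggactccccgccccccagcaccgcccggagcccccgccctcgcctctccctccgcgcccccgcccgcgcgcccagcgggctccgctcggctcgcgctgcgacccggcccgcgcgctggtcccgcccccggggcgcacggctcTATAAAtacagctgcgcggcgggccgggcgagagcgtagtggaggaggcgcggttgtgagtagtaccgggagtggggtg
SMAD6 (chr15:66701986-66702285, + strand): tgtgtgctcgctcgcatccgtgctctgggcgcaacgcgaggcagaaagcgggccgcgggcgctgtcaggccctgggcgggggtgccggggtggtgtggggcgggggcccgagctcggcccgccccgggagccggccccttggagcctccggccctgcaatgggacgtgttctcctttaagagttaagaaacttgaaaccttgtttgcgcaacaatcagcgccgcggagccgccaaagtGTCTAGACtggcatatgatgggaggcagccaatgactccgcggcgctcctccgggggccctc
BMP4 (chr14:53955001-53955300, - strand): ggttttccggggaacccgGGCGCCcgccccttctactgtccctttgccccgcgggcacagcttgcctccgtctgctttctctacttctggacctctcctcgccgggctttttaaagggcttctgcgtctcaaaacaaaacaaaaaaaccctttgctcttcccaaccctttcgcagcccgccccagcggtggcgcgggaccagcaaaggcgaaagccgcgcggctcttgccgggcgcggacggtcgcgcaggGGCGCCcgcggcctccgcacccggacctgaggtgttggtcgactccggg

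Each motif was searched on both strands of 35116 windows of 27305 genes. TATAAA was found in 3 of the 15 member windows, of ID1, ID4 and SMAD7, and in 11.5% of all windows. In ID1 it began 31 bases before the gene start and in ID4 29 bases before it. GTCTAGAC was found in the SMAD6 window, 12 bases before the start, and in 0.202% of all windows. GGCGCC was found in 2 of the 15 member windows, of BMP4 and PMEPA1, and in 19.2% of all windows. The short SMAD box CAGAC was found in 10 of the 15 member windows and in 45.3% of all windows. Those 10 belong to 5 members, BMP4, ID3, ID4, PMEPA1 and SMAD7, some of which have several windows. None of these motifs contains another. The GC content of the 15 windows had a median of 62.0%, with a range of 48.3% in SMAD7 to 76.3% in ID4, and the median of all windows was 58.7%. A match is a stretch of letters and not a measured binding site.

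The members spanned a wide range of levels, read here in FPKM, which is per length and can be compared between genes. In untreated cells ID1 led at 62.8 ± 10.5 FPKM (SD, n = 3), above 96.1% of the tested genes. ID2 followed at 34.6 ± 4.75 FPKM and BMP4 at 26.4 ± 3.68 FPKM. These 3 genes formed the upper tier, and the ranges of ID2 and BMP4 overlapped in untreated cells though not in treated cells. BMP2 stood at 4.60 to 5.16 FPKM and KLF10 at 3.36 to 4.61 FPKM in untreated cells, so their ranges overlapped. ID3 at 1.84 ± 0.437 FPKM overlapped SMAD7 at 1.19 ± 0.415 FPKM, and SMAD7 overlapped SMAD6 at 0.710 ± 0.224 FPKM. PMEPA1 was at 0.146 ± 0.0540 FPKM, from 82 counts over the 6 libraries. ID4 had 0 counts in all 6 libraries. At 3 counts each, this allows up to 0.165 to 0.172 CPM in treated and 0.164 to 0.192 CPM in untreated libraries. These limits are per total counts, without TMM factors. The order of the means was the same in treated cells.

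**Figure D1:**
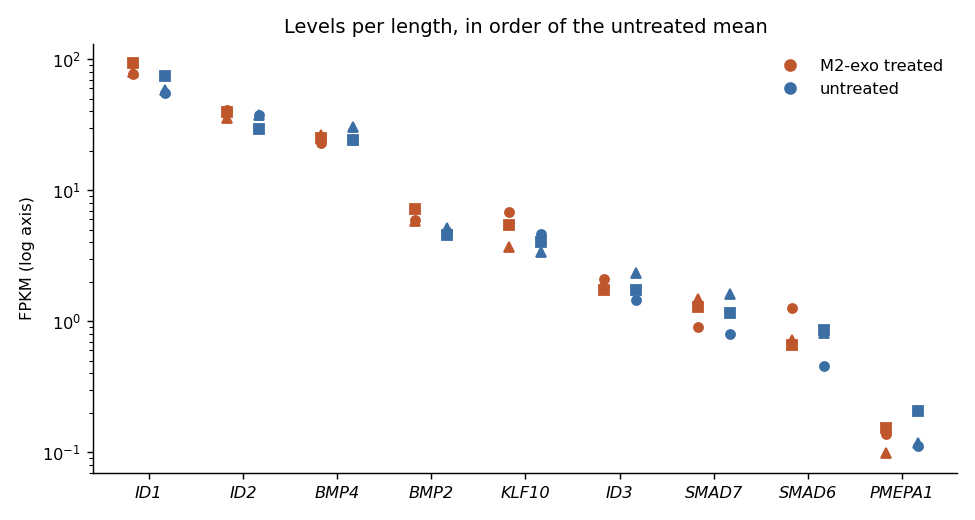
FPKM of the 9 detected members on a log axis, in order of the untreated mean; each point is 1 library, M2-exo treated to the left of untreated for each gene, circles, squares and triangles for replicates 1, 2 and 3. The levels ran from 62.8 FPKM for ID1 down to 0.146 FPKM for PMEPA1 (untreated means), and the groups lay close together for each gene.

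The comparison of M2-exo treated with untreated Caco-2 cells asked whether mRNA differed after exosome treatment. No member passed the test. With edgeR's quasi-likelihood test, 0 of the 9 tested members were called. Over all 15084 genes the share called was 0% in each direction, and DESeq2 and limma-voom also called 0. In edgeR 111 genes had an unadjusted p under 0.05, a smaller share than the 0.05 that evenly spread p values would give. The reason was not tested. The adjusted p was 0.9999 for each member. In such bulk libraries, fewer expressing cells and less RNA per cell cannot be told apart. The log2 fold change was above 0 in 7 of 9 members and in 47.1% of all tested genes. The members' median log2 fold change was 0.16, against -0.0099 over all genes. In 2 of 9 members, BMP2 and ID1, every treated value was above every untreated one, as in 1.65% of all genes. No member lay wholly below, as 2.3% of all genes did. The genes were chosen on this contrast, so nothing is read from these shares.

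**Figure D2:**
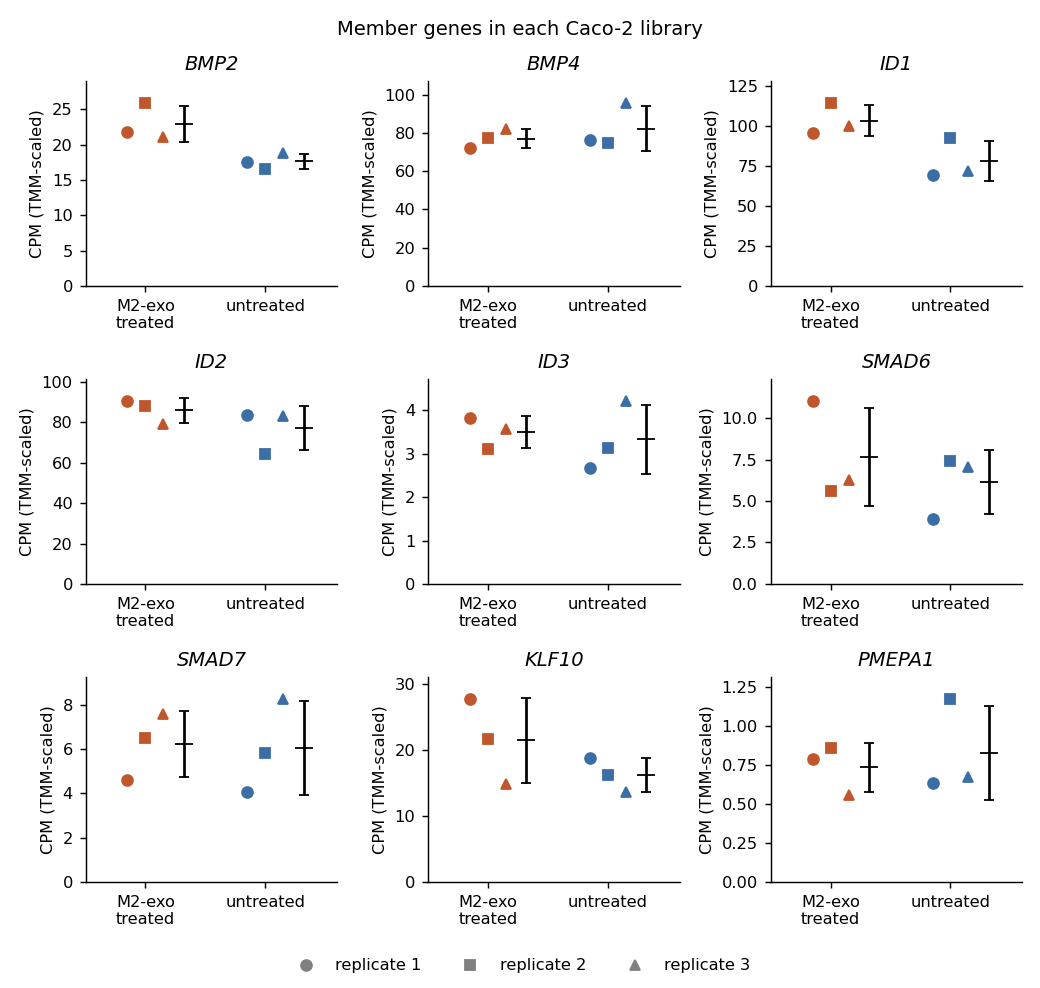
TMM-scaled CPM of each detected member in each library, M2-exo treated on the left and untreated on the right; symbols are replicates and the bars show mean ± SD (n = 3). Only BMP2 and ID1, of these 9, have treated points that all lie above the untreated ones.

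BMP2 (ENSG00000125845, chromosome 20, 6767664 to 6780280) encodes a ligand of the BMP receptors that is known in mature colonic epithelium. It had 21.7, 25.9 and 21.1 CPM in M2-exo treated cells, against 17.5, 16.6 and 18.8 CPM in untreated cells. The groups did not overlap, and treated 2 was the highest library. The means were 22.9 ± 2.60 CPM in treated and 17.6 ± 1.09 CPM in untreated cells (n = 3 each; SD), which gives 0.38 as log2 fold change (SE 0.17, 95% interval -0.017 to 0.77). Without each library in turn it stayed between 0.28 and 0.45.

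BMP4 (ENSG00000125378, chromosome 14, 53949736 to 53958761), a close relative of BMP2 that binds the same receptors, had 71.9, 77.2 and 81.8 CPM in treated cells and 76.2, 74.7 and 95.6 CPM in untreated cells. The groups overlapped, and untreated 3 was the highest. On the log2 scale the fold change was -0.095 (SE 0.15, 95% interval -0.44 to 0.25), and 0.043 without untreated 3. With all 6 libraries the fold change was 0.936 (0.737 to 1.19).

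Among the ID genes, ID1 had the largest log2 fold change of any tested member. ID1 (ENSG00000125968, chromosome 20, 31605283 to 31606515) is the member of its family most used as a readout of BMP signalling. It had 96.1, 115 and 100.1 CPM in treated cells and 69.6, 92.7 and 72.2 CPM in untreated cells. The lowest treated library lay just above the highest untreated one, untreated 2. The means were 104 ± 9.78 CPM in treated and 78.2 ± 12.6 CPM in untreated cells, so that the log2 fold change was 0.41 (SE 0.16). Its 95% interval was 0.043 to 0.77, before any adjustment for the number of genes. In the main fit it was the only one of the 9 that left out 0. ID1 was chosen with these values in view, so nothing is read from that. Without each library in turn the log2 fold change stayed between 0.33 and 0.57. At its lowest, without treated 2, it was 0.33 (SE 0.20). It was 0.34 without untreated 1, the library of low mitochondrial share, and BMP2 was then at 0.38.

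ID2 (ENSG00000115738, chromosome 2, 8678845 to 8684453), a helix-loop-helix inhibitor also known as a Wnt target in colorectal cells, had 90.7, 88.1 and 79.1 CPM in treated and 83.8, 64.5 and 83.3 CPM in untreated cells. The groups overlapped, with untreated 2 alone at the bottom. This gave a log2 fold change of 0.16 (SE 0.16, 95% interval -0.20 to 0.51). An antisense gene, ID2-AS1, overlaps ID2 in the table and had 263 counts over the 6 libraries against 8517 for ID2, and the strand setting of the counting is not given.

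ID3 (ENSG00000117318, chromosome 1, 23557918 to 23559794) was the least abundant of the detected ID genes. It had 3.83, 3.10 and 3.57 CPM in treated and 2.67, 3.13 and 4.22 CPM in untreated cells. The untreated values enclosed the treated ones. Its log2 fold change was 0.065 (SE 0.27, 95% interval -0.55 to 0.68), and -0.064 without untreated 1. ID4, on chromosome 6, was not detectable at this depth in either group and was not tested.

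As a family, the ID genes were carried by ID1 and ID2. Their summed level was 120, 134 and 118 FPKM in treated and 94.6, 106 and 97.5 FPKM in untreated libraries. ID1 made up 64.3% to 69.1% of that sum in treated and 58.8% to 70.8% in untreated libraries. The share of ID1 thus overlapped between the groups, and the sum did not. Most of the sum is ID1, whose groups did not overlap by themselves, so the sum is not a separate result. ID3 made up 1.28% to 1.76% in treated and 1.55% to 2.38% in untreated libraries.

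The inhibitory SMAD genes varied more between replicates than between groups. SMAD6 (ENSG00000137834, chromosome 15, 66702228 to 66782848), which preferentially blocks BMP receptors, had 11.0, 5.63 and 6.24 CPM in treated and 3.94, 7.44 and 7.03 CPM in untreated cells. Treated 1 alone was the highest and untreated 1 alone the lowest. Between the groups, the log2 fold change was 0.31 (SE 0.34, 95% interval -0.45 to 1.07). It was -0.034 without treated 1 and 0.081 without untreated 1.

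SMAD7 (ENSG00000101665, chromosome 18, 48919853 to 48952052), which blocks both TGF-beta and BMP receptors, had 4.61, 6.49 and 7.58 CPM in treated and 4.07, 5.82 and 8.27 CPM in untreated cells. In each group replicate 1 was the lowest and replicate 3 the highest library. Its log2 fold change was 0.039 (SE 0.31, 95% interval -0.66 to 0.74). It was -0.17 without untreated 1 and 0.34 without untreated 3.

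The estimates for the TGF-beta early response genes had opposite signs. KLF10, a zinc finger repressor also called TGF-beta inducible early gene, had 27.7, 21.6 and 14.9 CPM in treated and 18.7, 16.2 and 13.6 CPM in untreated cells. In each group replicate 1 was the highest and replicate 3 the lowest library, and the groups overlapped. A log2 fold change of 0.40 (SE 0.25, 95% interval -0.16 to 0.97) was found, as large as that of ID1 but with a wider interval. It was 0.20 without treated 1 and 0.62 without treated 3.

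PMEPA1 (ENSG00000124225, chromosome 20, 57648392 to 57711536), a membrane protein that restrains TGF-beta signalling by holding its SMADs, had 14, 15 and 10 counts in treated and 10, 21 and 12 in untreated libraries. The groups overlapped, and untreated 2 was the highest. With so few counts the log2 fold change was -0.18 (SE 0.44, 95% interval -1.17 to 0.82), and 0.18 without untreated 2. Its antisense neighbour NKILA had 15 counts in all, against 82 for PMEPA1.

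**Figure D3:**
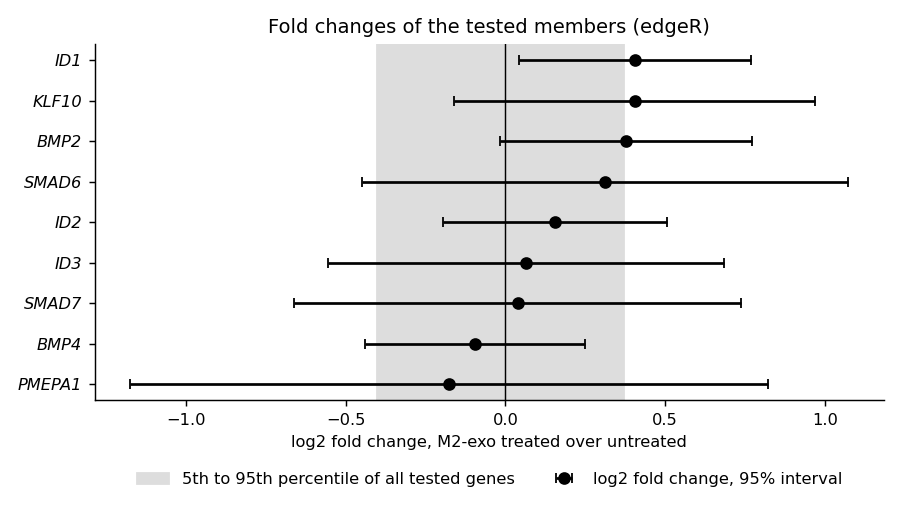
Log2 fold changes of the 9 tested members, M2-exo treated over untreated, with 95% intervals from edgeR; the grey band spans the 5th to 95th percentile of all 15084 tested genes (-0.40 to 0.37). ID1, KLF10 and BMP2 lie just beyond the band's upper edge, and every interval other than that of ID1 includes 0. The members were chosen with these values in view, so nothing is read from this.

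The intervals reflect the spread between these libraries, which may be technical, and do not bound the change that treatment would give in separate cultures. For 7 of 9 members the 95% interval left out a 2-fold change in either direction, and so it did for 75.8% of all tested genes. The exceptions were SMAD6 and PMEPA1. Replicate spread was the larger in untreated cells for 6 of 9 members, as for 72.0% of all genes. The median SD of log2 CPM over the members was 0.16 in treated and 0.23 in untreated cells, against 0.19 and 0.30 over all tested genes. Untreated 1 held the lowest value of 4 members and the highest of none, a count that was not made over all genes. The part of its low mitochondrial share in these values was not tested.

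**Figure D4:**
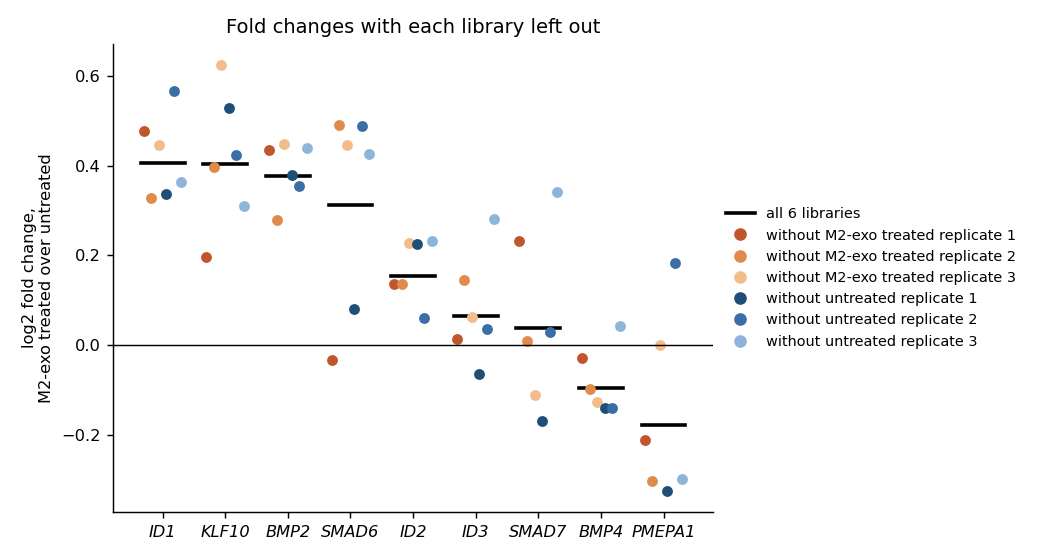
Log2 fold change of each tested member, M2-exo treated over untreated, with all 6 libraries (black bars) and without each library in turn (points). BMP2, ID1, ID2 and KLF10 stay above 0 throughout, and BMP4, ID3, SMAD6, SMAD7 and PMEPA1 cross 0 for at least 1 left-out library.

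The other genes of the pathway were taken from 10 lists with 95 genes, of which 68 had enough counts to test. None was called higher and none lower by edgeR, adjusted over all genes. Their log2 fold changes were above 0 in 35 and below 0 in 33, with a median of 0.018. Every treated value was above every untreated one in 3 of them, TGFBR2, NEDD4L and THBS1, and below in 0, where over all tested genes the shares were 1.65% above and 2.3% below.

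Among 16 other ligand genes 7 were tested, with log2 fold changes of -0.48 to 0.16. BMP7, a ligand of the BMP5 to BMP8 branch, was the most abundant BMP gene at 45.1 ± 7.85 FPKM in treated and 48.6 ± 5.08 FPKM in untreated cells (log2 -0.11, SE 0.16). GDF15, a stress-induced relative, stood at 16.1 ± 2.51 FPKM in treated and 15.9 ± 4.92 FPKM in untreated cells. GDF11 stood at 3.83 ± 0.158 FPKM in treated and 3.43 ± 1.06 FPKM in untreated cells. Of the 8 TGF-beta and activin ligand genes 6 were tested (-0.21 to 0.28), led by TGFB1 at 19.1 ± 6.71 FPKM in treated and 17.1 ± 6.03 FPKM in untreated cells.

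Receptors of both branches were present. Of 11 type I and II receptor genes 10 were tested, 4 above 0 and 6 below (-0.14 to 0.26). BMPR1A, the type I receptor of BMP2 and BMP4, stood at 7.66 ± 0.272 FPKM in treated and 8.40 ± 2.01 FPKM in untreated cells (log2 -0.14, SE 0.18). TGFBR2, the type II receptor of TGF-beta, stood at 30.9 ± 2.16 FPKM in treated and 26.3 ± 2.54 FPKM in untreated cells (log2 0.23, SE 0.14). ACVR1B, an activin receptor, stood at 33.4 ± 2.68 FPKM in treated and 34.7 ± 3.20 FPKM in untreated cells. Of 6 co-receptor genes 3 were tested (-0.14 to 0.047), led by TGFBR3 at 5.16 ± 0.309 FPKM in treated and 5.65 ± 1.38 FPKM in untreated cells.

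Of 16 antagonist genes 8 were tested, 2 above 0 and 6 below (median -0.12, -0.34 to 0.47). The largest change by size was above 0. In the same list 5 genes had 0 counts, among them noggin (NOG). CRIM1, a membrane protein that binds BMPs, stood at 51.6 ± 10.5 FPKM in treated and 65.0 ± 17.6 FPKM in untreated cells (log2 -0.34, SE 0.22). TWSG1, which binds BMPs outside the cell, stood at 37.5 ± 1.82 FPKM in treated and 40.9 ± 10.2 FPKM in untreated cells. BAMBI, a receptor-like protein without a kinase, stood at 11.1 ± 4.66 FPKM in treated and 12.6 ± 4.68 FPKM in untreated cells.

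All 6 signal transducing SMAD genes were tested, 2 above 0 and 4 below (-0.16 to 0.17). SMAD5, a BMP SMAD, led at 17.9 ± 2.32 FPKM in treated and 17.6 ± 2.82 FPKM in untreated cells (log2 0.022, SE 0.17). SMAD1 stood at 1.53 ± 0.301 FPKM in treated and 1.36 ± 0.212 FPKM in untreated cells. The 7 genes of SMAD ubiquitin ligases and co-repressors lay between -0.0018 and 0.16, with SMURF1, a ligase for BMP SMADs, at 8.21 ± 0.593 FPKM in treated and 7.67 ± 0.0922 FPKM in untreated cells. The 3 E protein genes, whose products the ID proteins bind, lay between -0.057 and 0.089, with TCF3 at 24.8 ± 6.53 FPKM in treated and 23.2 ± 8.45 FPKM in untreated cells.

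No other target gene passed the test. All 11 other TGF-beta targets were tested, 8 above 0 and 3 below (median 0.077, -0.54 to 0.56), led by the fibronectin gene FN1 at 561 ± 51.0 FPKM in treated and 530.4 ± 58.7 FPKM in untreated cells (log2 0.077, SE 0.14). THBS1, thrombospondin, stood at 9.07 ± 0.758 FPKM in treated and 7.77 ± 0.599 FPKM in untreated cells (log2 0.22, SE 0.14). Of 11 other BMP targets 7 were tested, 4 above 0 and 3 below (median 0.035, -0.23 to 0.19). MSX2, a homeobox gene induced by BMPs, stood at 21.1 ± 4.12 FPKM in treated and 20.5 ± 3.96 FPKM in untreated cells, and HES1 at 44.3 ± 8.73 FPKM in treated and 40.3 ± 12.5 FPKM in untreated cells.

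**Figure D5:**
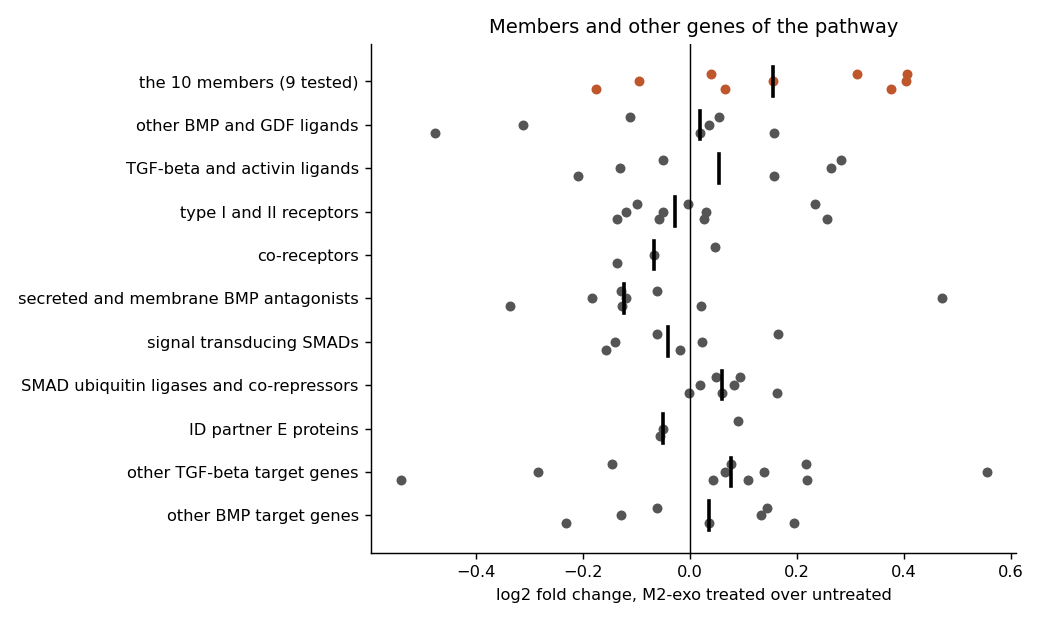
Log2 fold changes, M2-exo treated over untreated, of the 9 tested members (top row) and of the 68 tested genes in 10 other pathway lists; each point is a gene and each bar a list's median. The list medians lie between -0.12 and 0.077 and that of the members, which were chosen on these values, at 0.16.

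The genes whose pattern over the 6 libraries was most like that of BMP2, by the root mean square difference of centred log2 CPM among 8510 genes that varied at least as much, were LINC02175 (0.053), the complement gene C3 (0.077) and the homeobox gene HHEX (0.092). For ID1, among 6798 such genes, they were MNS1 (0.090), AL445222.1 (0.11) and GNRH1 (0.11). No member was among them, but only the 3 nearest genes were taken for each, so this does not show whether members varied together.

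Some miRNAs carried by the exosomes have reported targets in this pathway: miR-21-5p for SMAD7, miR-26a-5p for SMAD1, miR-155-5p for SMAD5, miR-146a-5p for SMAD4, and miR-17-5p and miR-20a-5p for BMPR2. They are shown with the seed, bases 2 to 8, in capitals, because the seed sets which targets are recognised. The sequences are RefSeq's, build GRCh38.p14. The last pair shares the seed AAAGUGC.
miR-21-5p: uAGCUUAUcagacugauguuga
miR-26a-5p: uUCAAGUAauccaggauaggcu
miR-155-5p: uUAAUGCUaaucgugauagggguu
miR-146a-5p: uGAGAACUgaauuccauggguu
miR-17-5p: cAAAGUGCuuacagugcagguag
miR-20a-5p: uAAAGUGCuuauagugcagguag

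With 1 library each, of 9929 counts in M2-exo and 13584 in M0-exo, these values compare libraries and have no replicate check, and the exact Clopper-Pearson 95% intervals cover counting error only. The target changes below compare M2-exo treated with untreated cells, so they do not follow the contrast of M2-exo with M0-exo. Of the 6, miR-21-5p was by far the most abundant, with 19.5% of counts in M2-exo (18.7 to 20.3) and 27.2% in M0-exo (26.4 to 27.9). Its reported target SMAD7 had a log2 fold change of 0.039 in the recipient cells (95% interval -0.66 to 0.74). The share of miR-26a-5p was 1.84% in M2-exo (1.59 to 2.13) and 1.07% in M0-exo (0.908 to 1.26), and SMAD1 had a log2 fold change of 0.17 (-0.35 to 0.68). The share of miR-155-5p was 2.59% in M2-exo (2.28 to 2.92) and 1.88% in M0-exo (1.66 to 2.12), and SMAD5 had a log2 fold change of 0.022 (-0.35 to 0.40). The share of miR-146a-5p was 0.514% in M2-exo (0.383 to 0.675) and 0.766% in M0-exo (0.626 to 0.927), and SMAD4 had a log2 fold change of -0.062 (-0.50 to 0.38). The pair with the shared seed was sparse. The share of miR-17-5p was 0.0906% in M2-exo (0.0415 to 0.172, from 9 counts) and 0.0883% in M0-exo (0.0457 to 0.154, from 12 counts). The share of miR-20a-5p was 0.0201% in M2-exo (0.0024 to 0.0727, from 2 counts) and 0.0957% in M0-exo (0.0510 to 0.164, from 13 counts). Their reported target BMPR2 had a log2 fold change of 0.029 (-0.33 to 0.39). None of these 5 target genes passed edgeR's test (adjusted p = 0.9999 for each).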

How the data were processed

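Gene counts deposited by the authors, whole numbers for 58735 Ensembl genes in 3 M2-exo treated and 3 untreated Caco-2 libraries, were tested with edgeR 4.0.16 (R 4.3.3). The filter was filterByExpr by group, which left 15084 genes; scaling was TMM, the test the 2-sided quasi-likelihood F test, and Benjamini-Hochberg adjustment ran over all tested genes at 0.05. Each standard error is the size of the log2 fold change over the root of F. The submitters' processing notes name CASAVA, HISAT2, featureCounts and GRCh38, and Bowtie for the exosomes, without versions. How strand and multi-mapping reads were handled in counting is not given in the sources used here. FPKM values, deposited by the authors, equal counts per gene length and per a constant for each column, and were used for levels. The miRNA counts were deposited by the authors too. The count and FPKM data together hold 6 columns headed as Caco-2 with M0-exo. They match no sample and were not used, so M2-exo treated cells are compared with untreated cells only.

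The members and lists were chosen with earlier results of these data known. Genes named from a list were those of highest mean FPKM (up to 4 a list), chosen by rule; TGFBR2, NEDD4L and THBS1 are also named because their groups do not overlap. One gene of the antagonist list is not reported here. CCN2 was matched through its older symbol CTGF. Alternatives were DESeq2 1.42.0, limma-voom (limma 3.58.1), limma on log2(FPKM + 1) and log2(FPKM + 0.1), other scalings and filters, a block for the replicate number, and fits without each of the 6 libraries. Shares have exact 95% intervals from scipy 1.17.1.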

Additional observations from a re-analysis of the deposited data

How the results depend on the processing

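No alternative called a member or a gene of the pathway lists. Under 9 alternatives other than leaving out a library, 7 members lay above 0, with 9 tested (8 with a mean CPM of at least 1), and the members' median log2 fold change ran from 0.13 to 0.25, and from 0.081 to 0.31 with each library left out. Without any filter 3 genes were called higher (EGR1, U2AF1L5 and BOLA2B) and 3 lower (C6orf48, RN7SL2 and SMIM11A), and without treated 2 BOLA2B alone was called, so leaving out libraries gave 0 to 1 higher and 0 lower calls; these genes are named after their values were seen, and the cause was not tested. Signs turned only when a library was left out: BMP4 ran from -0.14 to 0.043, ID3 from -0.064 to 0.28, SMAD6 from -0.034 to 0.49, SMAD7 from -0.17 to 0.34 and PMEPA1 from -0.32 to 0.18 (0.0015 without treated 3). A replicate block left the calls at 0: 0 genes were called higher and 0 lower (211 at an unadjusted p under 0.05), with ID1 at 0.41, BMP2 at 0.37 and KLF10 at 0.37. Between same-numbered libraries, r across genes was 0.28, -0.065 and 0.48 for replicates 1, 2 and 3, where genes are not independent replicates. Between differently numbered libraries it ran from -0.42 to 0.18, below the values for replicates 1 and 3. A shared replicate effect for those numbers therefore remains possible. The labels do not state pairs, so the main fit used none and the block stands beside it. Depth limited PMEPA1 and ID4 most, at 82 and 0 counts in all.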

Other observations

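The balance of the ligand genes within each library, looked at after the values were seen, does not depend on library scaling. The ratio of BMP4 to BMP2 in FPKM was 3.87, 3.48 and 4.52 in M2-exo treated libraries, against 5.08, 5.26 and 5.94 in untreated libraries. All treated ratios lay below all untreated ones, but BMP2, the lower part of the ratio, had already separated the groups by itself. The ratio of ID1 to ID2 was 1.89, 2.33 and 2.26 in treated and 1.49, 2.57 and 1.55 in untreated libraries, and the groups overlapped. For ID1 to ID3 they overlapped too, at 36.6 to 53.9 in treated and 25.0 to 43.1 in untreated libraries. The ratio of SMAD7 to SMAD6 was 0.712, 1.96 and 2.07 in treated and 1.76, 1.33 and 2.00 in untreated libraries, with treated 1 alone at the bottom. These ratios use the values the genes were chosen on and were not tested.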
